A study of Mus musculus with 30 samples.

Results

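The genes described here encode the proteins of the cytosolic ribosome. They were picked by a rule on gene names, set with earlier results of these data known. Members were Rplp0, Rplp1, Rplp2, Rpsa and every symbol made of Rpl or Rps, digits and at most 1 further letter (a, l or x). Pseudogenes and the Rps6k kinases were left out. The rule found 83 of the 49398 genes in the count tables, 51 of the large subunit and 32 of the small subunit. Ribosomal proteins carried by other symbols, such as Fau and Rps3a1, were not members.

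Messenger RNA was sequenced from 14 livers and 16 retinas of male wild-type C57BL/6J mice. All mice were pair-fed 1 of 2 purified diets of equal energy and fasted for 6 h before collection. The high glycemic index (HGI) diet held 100% amylopectin starch, and the low glycemic index (LGI) diet held 70% amylose and 30% amylopectin. Mice put on a diet at 6 months of age were fed for 1 month and collected at 7 months (LGI, 4 livers and 4 retinas; HGI, 3 livers and 4 retinas), and mice put on a diet at 12 months of age were fed for 12 months and collected at 24 months, with the same numbers. The 1-month and 12-month mice therefore differed in age, time on the diet and cohort, which cannot be told apart. No genotype, drug or transgene was compared.

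A ribosome is built from ribosomal RNA and about equal amounts of each of its proteins, so cells make these proteins in step with one another. Their messenger RNAs are short, abundant and begin with a terminal run of pyrimidines (the TOP motif), through which mTOR signalling and Larp1 control how much of each message is translated rather than how much is made. Some members have further known duties: Rps6 is phosphorylated by S6 kinases, Rpl5 and Rpl11 restrain Mdm2 when ribosome assembly fails, Rplp0, Rplp1 and Rplp2 form the stalk that recruits elongation factors, Rps27a is made as a fusion with ubiquitin, and loss of Rps19 or Rps24 function underlies Diamond-Blackfan anaemia.

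The start of the gene is the region behind the TOP motif, so start windows are shown for 9 members chosen for a known role that had an entry. RefSeq start windows were used for 61 of the 83 members on GRCm38.p6, an older build than the GRCm39 of the counts. Entries on a single chromosome were left out, for members and for other genes. Each line below gives the 10 bases before and the 20 bases from an annotated start, with the longest run of C and T in capitals.
Rps6, chr4:86857348-86857377, minus strand: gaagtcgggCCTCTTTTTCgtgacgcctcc
Rplp2, chr7:141447641-141447670, plus strand: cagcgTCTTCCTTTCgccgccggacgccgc
Rpl38, chr11:114668570-114668599, plus strand: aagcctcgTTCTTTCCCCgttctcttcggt
Rpl11, chr4:136053374-136053403, minus strand: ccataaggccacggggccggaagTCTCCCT
Rpsa, chr9:120127756-120127785, plus strand: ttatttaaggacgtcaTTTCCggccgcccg
Rplp0, chr5:115559457-115559486, plus strand: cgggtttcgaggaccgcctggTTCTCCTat
Rpl5, chr5:107900518-107900547, plus strand: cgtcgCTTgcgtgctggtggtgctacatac
Rps4x, chrX:102189372-102189401, minus strand: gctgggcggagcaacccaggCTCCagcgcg
Rps19, chr7:24884582-24884611, plus strand: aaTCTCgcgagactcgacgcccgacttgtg
Rps19, chr7:24884666-24884695, plus strand: cggtgagtgagggCTCTgggtcgcggctgt
Rps19, chr7:24884903-24884932, plus strand: agcggggtgtggagggCTCTCCCacgcggt
In Rps6, Rplp2 and Rpl38 (a protein known for its part in Hox mRNA translation in the embryo) a run of 10 pyrimidines lay across the start. In the other 6, among them Rpsa, the laminin receptor precursor, the longest runs of 3 to 7 lay beside the annotated start, also in all 3 entries of Rps19. A run of 8 or more over the start was present in 18 of 61 members (29.5%) and in 4.53% of the 26964 other genes used. In windows from 250 bases before to 50 bases after the start, read on both strands, the letters CCGGAAG occurred in 25 members (41%) and 9.86% of other genes, AAGATGG in 9 (14.8%) and 7.26%, and TATAAA in 7 (11.5%) and 15.7%. These are letter matches and not sites of binding.

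Libraries held 11.3 M to 44.9 M counts in liver (median 21.9 M) and 16.8 M to 34.1 M in retina (median 24.4 M). The 6 hepatocyte markers summed to 63200 to 123000 CPM (counts scaled to a common library size) in livers and 23.2 to 182 CPM in retinas, and the 6 rod markers to 34700 to 62500 CPM in retinas and 2.54 to 36.8 CPM in livers, so each library carried its labelled tissue. In such bulk samples, fewer cells of a type and less RNA per cell cannot be told apart.

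Ribosomal protein genes held a small share of the counts in both tissues, and no diet or age group stood clear of the others. The 83 genes held 0.489% to 1.16% of liver counts (median 0.674%) and 0.754% to 1.15% of retina counts (median 0.935%). Per length, they held 0.951% to 2.4% of TPM, the count divided by transcript length and scaled to a common total, in liver and 2.26% to 3.33% in retina. The mean share in liver was 0.617% ± 0.13 (SD, n = 4) in 1-month LGI, 0.652% ± 0.0849 (n = 3) in 1-month HGI, 0.721% ± 0.138 (n = 4) in 12-month LGI and 0.811% ± 0.303 (n = 3) in 12-month HGI. In retina it was 0.917% ± 0.155, 0.966% ± 0.164, 0.985% ± 0.154 and 0.936% ± 0.106 in the same order (n = 4 each). The ranges of all 4 groups overlapped within each tissue.

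The 12-month HGI liver replicates held 1.16%, 0.652% and 0.62%, so that 1 library, replicate 50, set the mean and the spread of its group. In that library 76 of the 77 members tested lay above their group mean (median deviation 0.656 on the log2 scale), while replicates 51 and 52 had 1 and 3 members above it. Across libraries the number of members above their own group mean ran from 1 to 76 of 77 in liver and from 0 to 72 of 78 in retina, so members often deviated together. For GC-rich members this was not particular to the family. Short GC-rich genes outside the 83 members deviated in the same direction in 13 of 14 livers and 16 of 16 retinas. At the lowest GC content the directions matched in 10 of 14 livers and 10 of 16 retinas. Replicate 50 also had the highest summed level of erythroid markers (257 CPM, range over livers 52.8 to 257), of 22 translation factors and related TOP genes (11600 CPM, range 5290 to 11600), of mitochondrial ribosomal proteins (1750 CPM) and of nuclear-encoded respiratory chain subunits (8810 CPM), and the lowest level of mitochondrially encoded protein genes (96700 CPM). Its leukocyte markers (55.4 CPM) and hepatocyte markers (108000 CPM) lay inside the range of the other livers. The part of these differences in the family's level was not tested.

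**Figure D1:**
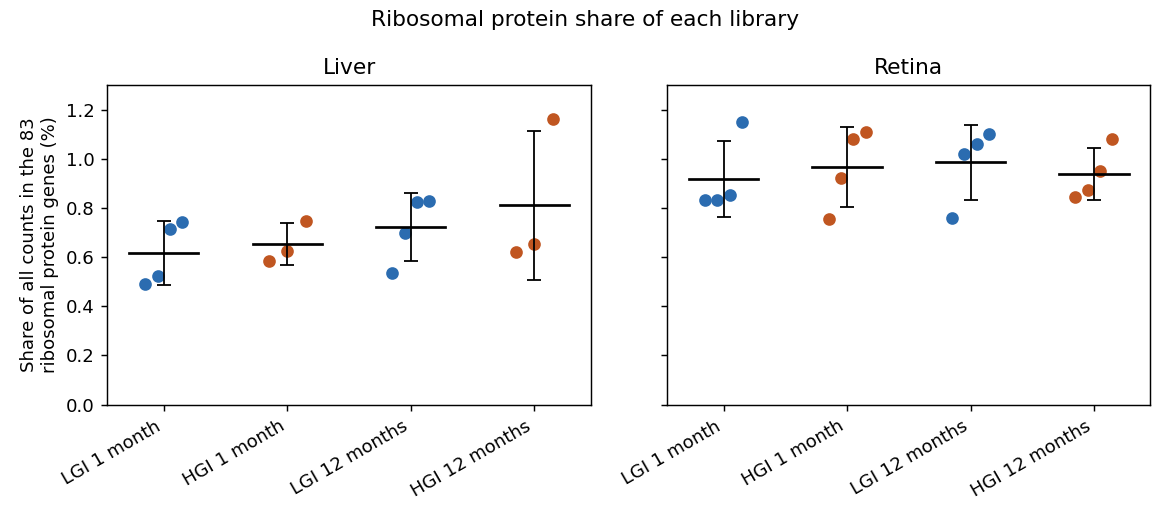
Percent of each library's counts that lie in the 83 ribosomal protein genes, by group, with 1 point per library and bars for the group mean and SD. The 12-month HGI liver at 1.16% stands apart from its group, and in both tissues the ranges of all groups overlap.

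The movement of the members was not uniform, since they differed in how tightly they were held between replicates. The within-group SD on the log2 CPM scale had a median of 0.402 over members in liver, against 0.278 over all genes tested, and of 0.27 against 0.212 in retina. Rpl30 was the steadiest member in both tissues (SD 0.156 in liver and 0.0909 in retina), and only 5.56% of retinal genes had a smaller SD. Rps4x, the X-linked form of Rps4, followed closely (0.196 and 0.103), as did Rps15a (0.0921) and Rpl27a (0.0984) in retina and Rpl23 (0.182) and Rps27l (0.183) in liver. At the other end stood Rps15 (0.912 in liver and 0.921 in retina), Rpl36 (0.727 and 1.03), Rpl8 (0.836 and 0.764), Rpl11 (0.798 and 0.73) and Rpl18 (0.712 and 0.714), with SDs above those of over 97% of genes.

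The GC content of a member's leading transcript ran with this spread. The SD rose from a median of 0.251 in the 25 members of lowest GC content (40.9% to 50%) to 0.418 in 27 members (50.2% to 54.4%) and 0.539 in the 25 of highest GC content (54.6% to 61.2%) in liver. The same medians in retina were 0.144, 0.294 and 0.457 (n = 26 each). As a description, Spearman's rho of SD with GC content was 0.71 over 77 members in liver and 0.73 over 78 in retina, with all members read from the same libraries. Over the other genes tested it was 0.12 (n = 11451) and 0.22 (n = 14958). Members with a higher level also had a smaller SD (rho -0.66 and -0.59), and transcript length was only weakly related to it (-0.17 and -0.09).

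Other genes shorter than 1 kb showed a like gradient, with median SDs of 0.276, 0.32 and 0.424 in liver and 0.206, 0.241 and 0.384 in retina over the same GC ranges. Only the members were left out of these other genes, so ribosomal protein pseudogenes and genes such as Rps3a1 could be among them. In 13 of 14 livers and 16 of 16 retinas, the GC-rich members and the other GC-rich short genes deviated from their group mean in the same direction. At the lowest GC content this held in 10 of 14 livers and 10 of 16 retinas. In liver replicate 50 the median deviation was 0.413 for the members of lowest GC content and 0.897 for those of highest, and for other short genes it was 0.144 and 0.553. The source of this shared movement was not tested.

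**Figure D2:**
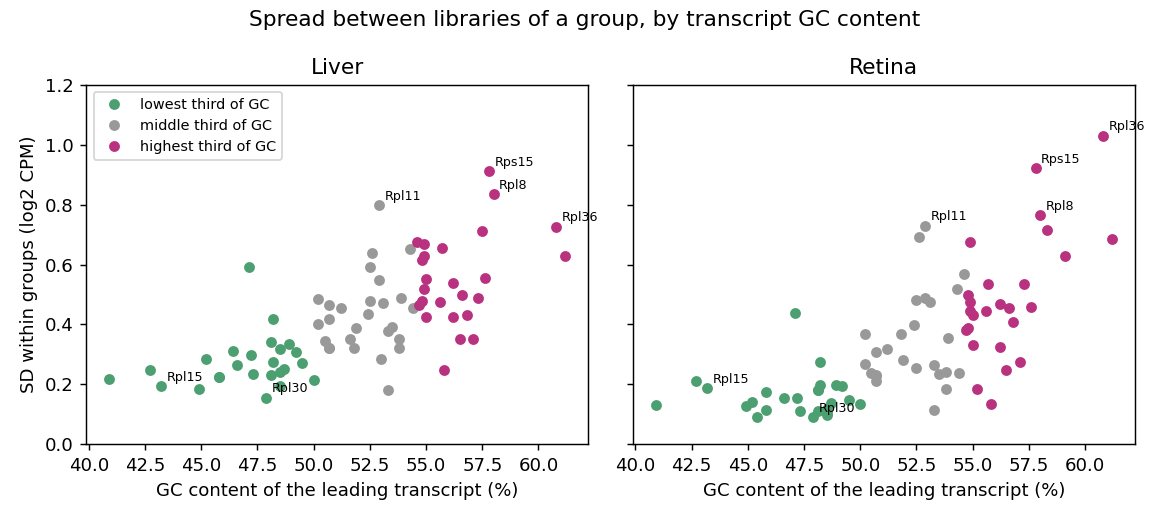
Within-group SD of log2 CPM of each member against the GC content of its leading transcript in percent, liver and retina in separate panels, 1 point per member. Rpl30 and Rpl15 lie low at under 50% GC, and Rpl8, Rps15 and Rpl36 lie high at over 57% GC.

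Levels per length showed which messages were abundant. The median over members was 150 TPM in liver and 259 TPM in retina. Rps24 was the highest member in both tissues (723 and 1750 TPM), followed in liver by Rps27a (525) and Rps4x (485) and in retina by Rpl9 (1280) and Rps27 (1120). The lowest of the tested large-subunit proteins were Rpl12, which binds at the base of the stalk (1.51 TPM in liver and 5.81 in retina), Rpl36 (4.53 and 14.8) and Rpl28 (11.3 and 24.1). Among members with known further roles, Rps6 stood at 233 and 350 TPM, Rpsa at 166 and 339, Rps19 at 124 and 248, Rpl38 at 156 and 257, and Rps27a at 525 and 961 in liver and retina. The stalk proteins were lower, with Rplp0 at 86.4 and 122, Rplp1 at 46 and 123 and Rplp2 at 49.5 and 95.3, and so were the Mdm2-binding Rpl5 (20.1 and 87.7) and Rpl11 (40 and 116).

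Several of the low members have near-identical genes elsewhere that held counts of their own. Ribosomal protein genes have many retrotransposed copies, and 304 genes outside the family held at least 50% of their 31-base words in a transcript of 1 of 68 members. Copies held 18.9% of the combined counts of members and copies in liver and 14.4% in retina, and 27 copies had over 1000 counts. More than 50% of the combined counts lay in copies for 11 members in liver and 10 in retina. They included Rpl12 (98.4% in liver and 95.4% in retina), Rpl5 (92.1% and 81.8%, mostly in Gm15500), Rpl10 (84.8% and 73.6%, in Rpl10-ps3), Rpl27 (82.4% and 78.2%), Rpl11 (76.7% and 64.1%, in Gm10288) and Rpl28 (75.6% and 67.3%). The copies of Rpl27 over 1000 counts, Gm11518 and Rpl27-ps3, had equal counts of 6590 in liver and 10300 in retina.

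Rpl12 is shown as the member with the largest share in copies. It lies at chr2:32961559-32965345 on the plus strand of GRCm38, and its copy Gm10275, annotated as a transcribed processed pseudogene, lies at chr10:29698746-29699380 on the minus strand. The first 60 bases of the coding sequence, shown because they are shared base for base by both, are given with the start codon in capitals.
Rpl12 and Gm10275: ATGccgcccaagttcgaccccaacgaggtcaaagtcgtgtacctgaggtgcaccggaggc
Over the whole 495-base coding stretch the pair had 0 differences, and 604 of the 605 31-base words of the 635-base Gm10275 transcript occurred in Rpl12. With copies added, Rpl12 rose from 1.51 to 262 TPM in liver and from 5.81 to 410 TPM in retina, Rpl5 from 20.1 to 507 and from 87.7 to 802, Rpl11 from 40 to 246 and from 116 to 424, Rpl10 from 150 to 880 and from 109 to 429, and Rps6 from 233 to 433 and from 350 to 766. Rpl36 stayed at 4.54 TPM in liver, since its copies held only 1.53% of its combined counts. The SD of log2 TPM over the 77 members in the liver test fell from 1.53 to 1.23 with copies added, and over the same genes in retina from 1.41 to 1.15, so the members stood closer to one another when copies were counted with them. Whether reads given to a copy came from the member or from the copy was not tested. Every value below of a member named in the preceding paragraph is therefore uncertain in this respect. So are the values below of Rps6, Rps7, Rps12, Rps13, Rps20, Rps23, Rpl15 and Rpl36a, which had 13.3% to 62% of combined counts in copies.

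The tissues were compared in 1 fit over all 30 libraries, with differences given as retina minus liver on the log2 scale (logFC). After trimmed mean of M-values (TMM) scaling, 72 of 78 members were lower in retina and 1, Rps4l, was higher at an adjusted p below 0.05, where 40% of the 16256 genes tested were lower and 52% higher. The median logFC was -1.03 over members and 0.369 over all genes. In 39 members no retina overlapped any liver in level, as in 65.6% of all genes. Large-subunit and small-subunit members had alike medians (-1.02 and -1.07).

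This direction changed with the scaling of the libraries. The top 20 genes held 30.6% to 43.7% of liver counts and 14.9% to 18.3% of retina counts. Scaled by library totals alone, 59 members were higher and 5 lower in retina, with a median of 0.526, while the median of all genes was 1.93, and 75.8% of genes were higher and 19.3% lower. Relative to the members' own total, 27 members were higher and 23 lower (median 0.061), and with copies also added, 31 members were higher and 18 lower, with a median of 0.0802 where all genes had 1.56, and 70.5% of genes were higher and 22.4% lower. The labels do not say whether a liver and a retina came from the same mouse, and the fit treats the 30 libraries as separate. A higher or lower total of ribosomal protein mRNA in retina was thus not settled by these counts, and only members that stood apart from the rest of the family in every scaling are described as tissue-biased.

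**Figure D3:**
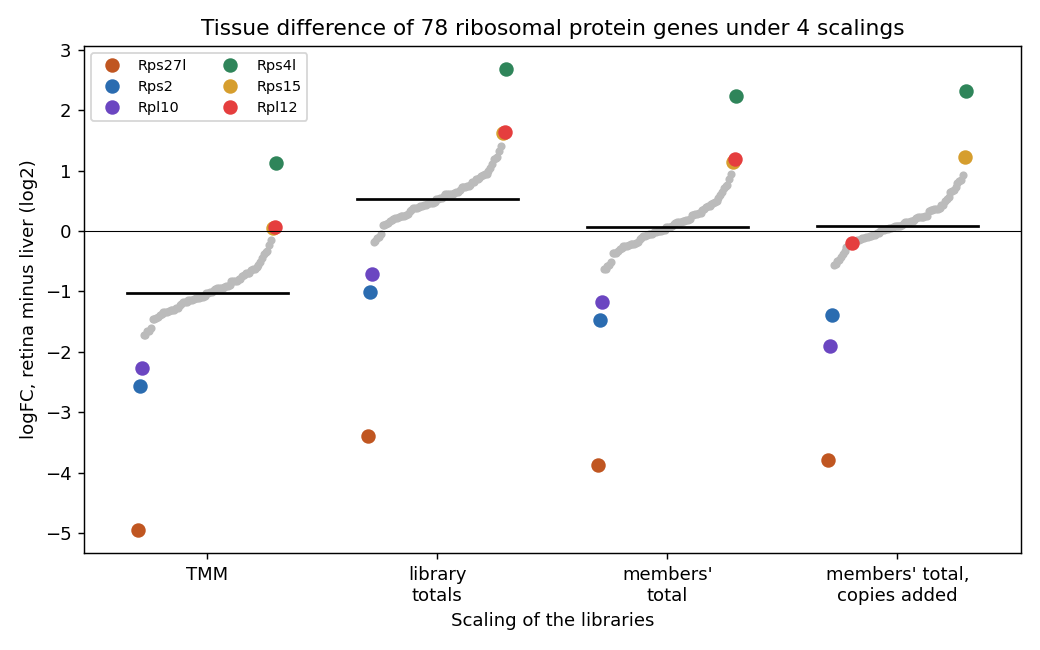
Retina minus liver logFC of each member under TMM scaling, library totals, the members' own total and that total with copies added, with 1 point per member in order of value, named members in colour and the median as a bar. The median of the family moves from -1.03 to 0.526, 0.061 and 0.0802, while Rps27l is the lowest member in all 4 settings.

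Rps27l was the member that differed most between the tissues. It is a paralog of Rps27, known as a target of p53, at chr9:66946086-66949516 on the plus strand of GRCm38, while Rps27 lies at chr3:90212522-90213651 on the minus strand. The 2 coding sequences are shown because they can be told apart along their whole length, with differing bases in capitals.
Rps27: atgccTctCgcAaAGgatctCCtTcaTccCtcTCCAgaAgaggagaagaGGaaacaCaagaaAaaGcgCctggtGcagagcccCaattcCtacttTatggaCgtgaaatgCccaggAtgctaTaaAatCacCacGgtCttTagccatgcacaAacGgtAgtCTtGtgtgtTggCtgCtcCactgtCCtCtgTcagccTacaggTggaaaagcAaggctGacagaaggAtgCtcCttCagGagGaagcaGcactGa
Rps27l: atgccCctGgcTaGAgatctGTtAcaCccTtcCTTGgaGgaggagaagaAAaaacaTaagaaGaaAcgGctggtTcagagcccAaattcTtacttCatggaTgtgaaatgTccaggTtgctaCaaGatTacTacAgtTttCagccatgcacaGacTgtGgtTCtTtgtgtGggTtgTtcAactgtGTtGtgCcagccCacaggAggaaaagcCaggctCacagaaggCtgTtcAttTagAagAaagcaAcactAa
They differ at 61 of 255 bases (76.1% identity) but in only 3 of 84 encoded residues, and share 0 of 225 31-base words. Rps27l also had 0 near-identical copies.

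Rps27l stood at 179 to 339 CPM in liver (median 231) and at 5.89 to 9.71 CPM in retina (median 7.69) on the scale of the joint fit. No retina came near the lowest liver. Its logFC was -4.95 (SE 0.07, adjusted p = 1.36e-29) under TMM scaling, -3.39 by library totals and -3.79 relative to the members' total with copies added. Per length it stood at 387 TPM in liver (306 to 452) and 53.2 TPM in retina (45.6 to 62.9). Its parent Rps27 stood at 473 TPM in liver and 1120 TPM in retina, and the median over members was also higher in retina per length (150 and 259 TPM). On the scale of the joint fit Rps27 was lower in retina (median 114 CPM) than in liver (median 183 CPM), so its direction changed with the scaling. The ratio of Rps27l to Rps27 within a library, which needs no scaling between libraries, was 0.432 to 1.33 in liver (median 0.812) and 0.0342 to 0.0634 in retina (median 0.0476) in TPM. In counts it had a median of 1.18 and a highest value of 1.93 in liver, and was 0.0496 to 0.0926 in retina (median 0.0698), and in neither unit did the tissues overlap.

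Rps2, which lines the mRNA entry channel, and Rpl10, which joins the large subunit late in assembly, were the next most liver-biased. Rps2 stood at 258 to 639 CPM in liver (median 429) and 52.9 to 90.5 CPM in retina (median 69.7), without overlap. Its logFC was -2.56 by TMM, -1.01 by totals and -1.39 relative to the members with copies. Rpl10 stood at 74.3 to 202 CPM in liver (median 113) and 18.7 to 38.1 CPM in retina (median 23.8), again without overlap, and its logFC of -2.26 by TMM was -1.91 relative to the members with copies. Its copy Rpl10-ps3 held most of its counts in both tissues. Among other members with the smallest p-values, Rpl23 (-1.72), Rpl36a (-1.73), Rps4x (-1.37) and Rps6 (-1.45) lay nearer the family median of -1.03.

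Rps4l, a low-level paralog of Rps4x, was the only member to pass the adjusted limit as higher in retina under TMM, with a logFC of 1.13 (2.32 relative to the members with copies). Its levels overlapped, at 0.495 to 2.14 CPM in liver and 1.16 to 5.12 CPM in retina. Its liver mean of 0.573 CPM by library totals lay under the required mean of 1 CPM in a group. Rps4l thus entered the joint fit through its retina levels, and the call depends on that filter. Its total of 179 counts over 14 livers also left it out of the liver tests. Relative to the members with copies, the members most raised in retina after it were Rps15 (1.22), Rpl9 (0.93), Rpl3, which sits near the peptidyl transferase centre (0.84), Rps15a (0.83) and Rpl8 (0.80), and the most lowered after Rps27l, Rpl10 and Rps2 were Rpl23 (-0.56), Rpl36a (-0.55) and Rplp0 (-0.49). A long Rps15a transcript held a larger share of that gene's counts in retina than in liver, as described below. Its part in the Rps15a value was not tested. Of the members with most counts in copies, Rpl12 had a logFC of 0.07 under TMM and -0.20 relative to the members with copies. Rpl5 had -0.14 and -0.18.

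Other paralogs, among them Rpl10l and Rpl39l known from testis and Rpl3l known from striated muscle, were near silent in both tissues. Rpl10l had 0 counts over all livers and 1 over all retinas, Rpl32l 0 and 5, Rpl39l 6 and 7, Rpl3l 10 and 12, and Rpl6l 16.2 and 20.8, and none passed the filter of a mean over 1 CPM in a group. Their parents Rpl39 (391 and 529 TPM), Rpl3 (155 and 543), Rpl32 (244 and 394) and Rpl6 (214 and 341) were expressed in every library.

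Transcripts of a member are counted within the same library, so their shares need no scaling between tissues. Rps24, at chr14:24487125-24496959 on the plus strand of GRCm38, has alternative last coding exons that change the end of the protein. This gene was singled out after its transcript values were seen. The coding ends are shown, 1 transcript for each, with the bases after the shared 390 in capitals.
ENSMUST00000112384: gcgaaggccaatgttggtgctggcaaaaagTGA
ENSMUST00000223999: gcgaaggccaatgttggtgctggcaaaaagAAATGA
ENSMUST00000225023: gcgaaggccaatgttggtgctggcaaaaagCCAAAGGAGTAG
The first ends after the shared lysines (130 residues), the next adds 1 lysine (131 residues), and the last adds proline, lysine and glutamate (133 residues).

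The short end was the main form in both tissues, with 78.9% to 88.7% of Rps24 counts in liver (median 82.5%) and 68.8% to 74.1% in retina (median 72.5%). The proline, lysine and glutamate end took 9.44% to 18.5% in liver (median 15.6%) and 0.295% to 0.776% in retina (median 0.428%). The end with 1 added lysine took 0.522% to 3.15% in liver (median 1.34%) and 12.7% to 17.1% in retina (median 14.2%). For each of the 3 ends no liver overlapped any retina, so each tissue had its own minor form. The 7 other Rps24 transcripts together held 0.403% to 1.04% in liver and 10.6% to 15.1% in retina. Differences between diet groups were smaller. The proline, lysine and glutamate end in liver had medians of 14.7% and 18% in 1-month LGI and HGI and of 16.1% and 15.6% in 12-month LGI and HGI, with overlapping ranges. These shares are estimates from reads that fit several transcripts, and they are given without a test.

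**Figure D4:**
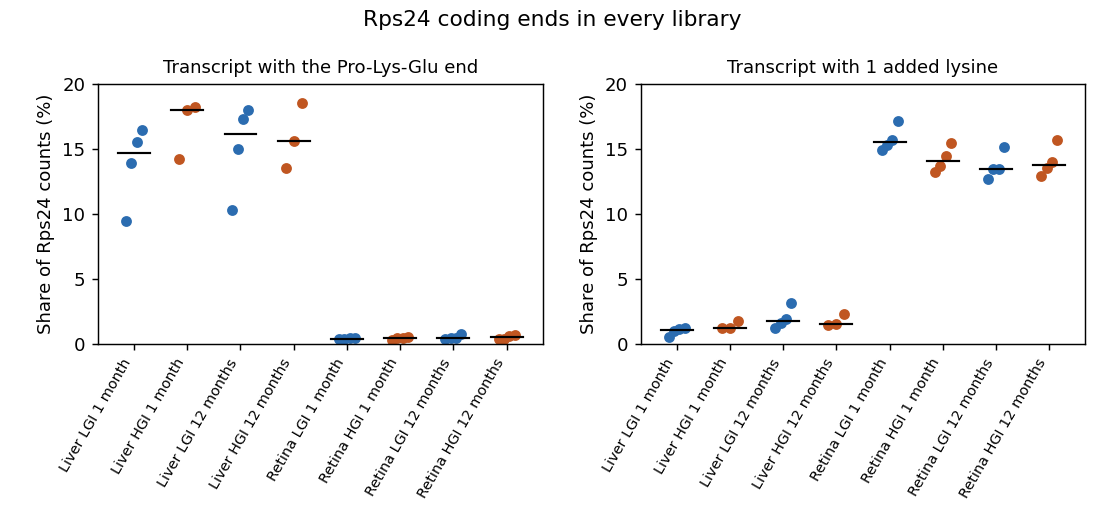
Percent of Rps24 counts in each library with the proline, lysine and glutamate end (left) and with 1 added lysine (right), by group, with 1 point per library and bars for group medians. The proline, lysine and glutamate end lies above 9% in all livers and under 1% in all retinas, and the end with 1 added lysine lies under 4% in all livers and above 12% in all retinas.

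The leading transcript differed between tissues in 6 of 81 members: Rpl12, Rpl18, Rpl39l, Rpl3l, Rps12 and Rps15a. In Rps15a the 640-base transcript held 81.2% of counts in liver and 45.5% in retina, while a 5179-base transcript held 5.61% to 14.3% in livers and 42.6% to 57.4% in retinas, without overlap. In Rpl18 a 402-base and a 679-base transcript held 47.1% and 46% in liver and 35.5% and 54.2% in retina, with overlapping ranges. Rps12 was led by a 460-base coding transcript in liver (45.1%) and by a 474-base transcript annotated for nonsense-mediated decay in retina (28.8%, against 30.8% of that transcript in liver). Rpl12 has the copies described above, and Rpl39l and Rpl3l had too few counts to read.

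The diet comparison in liver asked whether starch type changed this machinery after 1 or 12 months. After 1 month, 1 of 77 members passed an unadjusted p below 0.05: Rps23, a protein of the decoding centre, was lower on HGI. Of all 11537 genes tested, 2.55% were lower and 2.82% higher at that limit. Rps23 stood at 61.7, 78.5, 58.7 and 55.0 CPM in LGI livers and at 47.5, 46 and 45.4 CPM in HGI livers, so all HGI livers lay below the lowest LGI liver. Its logFC was -0.44 (SE 0.17, adjusted p = 0.905 by limma). Rpl15 (86.8, 118, 94.6 and 83.1 CPM on LGI and 78.4, 69.8 and 81.6 on HGI) and Rps24 (306, 297, 303 and 248 CPM on LGI and 230, 246 and 215 on HGI) did not overlap either, at logFC -0.31 (SE 0.16) and -0.32 (SE 0.18) that did not pass. Groups did not overlap in these 3 members and in 7.57% of all genes.

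More than 50% of the combined Rps23 counts lay in copies, and with them added its logFC was -0.20 and did not pass. By library totals it was -0.24 and did not pass. Rps13 (-0.36, SE 0.17), Rpl30 (-0.25, SE 0.14) and Rpl12 (-0.55, SE 0.33) were the other members with the smallest p-values, none of them under 0.05. No member passed the adjusted limit or the study's limit of a 1.5-fold change. The median logFC was -0.0532 over members and 0.00989 over all genes, and half-widths of the members' 95% intervals had a median of 0.603, so changes under about 1.5-fold in most members were not detectable with these livers. Without LGI replicate 36, which had the lowest Rps23 level of its group, 6 members were lower on HGI (Rpl15, Rpl30, Rpl39, Rps13, Rps20 and Rps23, logFC -0.51 to -0.34), where 2.96% of all genes were lower and 3.09% higher, and without LGI replicate 34 (-0.34) or HGI replicate 40 (-0.43) Rps23 did not pass.

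After 12 months, 0 of 77 members passed at p below 0.05 by limma, where 6.91% of all genes were higher and 4.01% lower on HGI, and by edgeR and DESeq2 the count was also 0. The smallest p belonged to Rpl5 (logFC -0.27, SE 0.19, and -0.08 with copies added) and Rps27l (-0.21, SE 0.15). The median over members was -0.00109. All 5 leukocyte markers were higher on HGI in the same livers at an unadjusted p below 0.05 (median logFC 1.15) and 2 of 6 hepatocyte markers were lower, and after 1 month these counts were 2 of 5 and 3 of 6. Their part in the members' values was not tested. This comparison turned on HGI replicate 50. Without it 9 members were lower on HGI at p below 0.05 (Rpl17, Rpl35a, Rpl36a, Rps13, Rps2, Rps24, Rps25, Rps6 and Rps7, logFC -0.56 to -0.33), where 3.51% of all genes were lower and 7.57% higher. Rps6, for example, stood at 168, 108 and 109 CPM in HGI replicates 50 to 52 and at 121, 140, 160 and 128 CPM in LGI livers.

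In retina after 1 month, Rpl12 was the single member to pass, and was higher on HGI, where 1% of the 15054 genes tested were higher and 1.68% lower. It stood at 5.15, 3.15, 3.30 and 4.05 CPM in LGI retinas and at 4.53, 5.12, 4.78 and 5.06 CPM in HGI retinas. The highest value was an LGI retina, so the groups overlapped. Its logFC was 0.35 (SE 0.16, fold 1.27, adjusted p = 0.999). With its copies added, which hold 95.4% of the combined counts, the logFC was 0.07 and did not pass, and edgeR (0.32) and DESeq2 (0.31) did not call Rpl12 on its own counts. It also lost the call without any 1 of LGI replicates 2, 3 and 4 or HGI replicates 6, 7 and 8 (0.25 to 0.35), and without HGI replicate 8 Rpl5 (-0.29) and Rps13 (-0.29) passed instead. The median was 0.0839 over members and 0.0219 over all genes. A positive logFC was found in 63 of 78 members and in 56% of all genes. After 12 months 0 of 78 members passed by limma, edgeR and DESeq2, where 4.5% of genes were higher and 3.25% lower. Rps27l had the smallest p (logFC 0.18, SE 0.11), and the median was 0.0126. Without HGI replicate 20, Rps20 (0.20) and Rps23 (0.21) were higher. In these 12-month retinas 4 of 6 hepatocyte markers were lower on HGI at an unadjusted p below 0.05, with a median logFC of -1.13, and their part was not tested.

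Small diet differences were ordered by GC content in both tissues. In liver, 24 of the 25 members of lowest GC content had a negative logFC after 1 month (median -0.158) and 18 of the 25 of highest GC content a positive one (median 0.118). After 12 months these counts were 23 of 25 negative (median -0.0672) and 20 of 25 positive (median 0.106). In retina the GC-rich members were higher on HGI after 1 month in 25 of 26 (median 0.135), while 14 of 26 members of lowest GC content were higher (median 0.0066). After 12 months the order was turned, with 19 of 26 GC-rich members lower (median -0.0371) and 23 of 26 of lowest GC content higher (median 0.0561). The same libraries carried the GC-related spread described above, and its part in these differences was not tested.

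**Figure D5:**
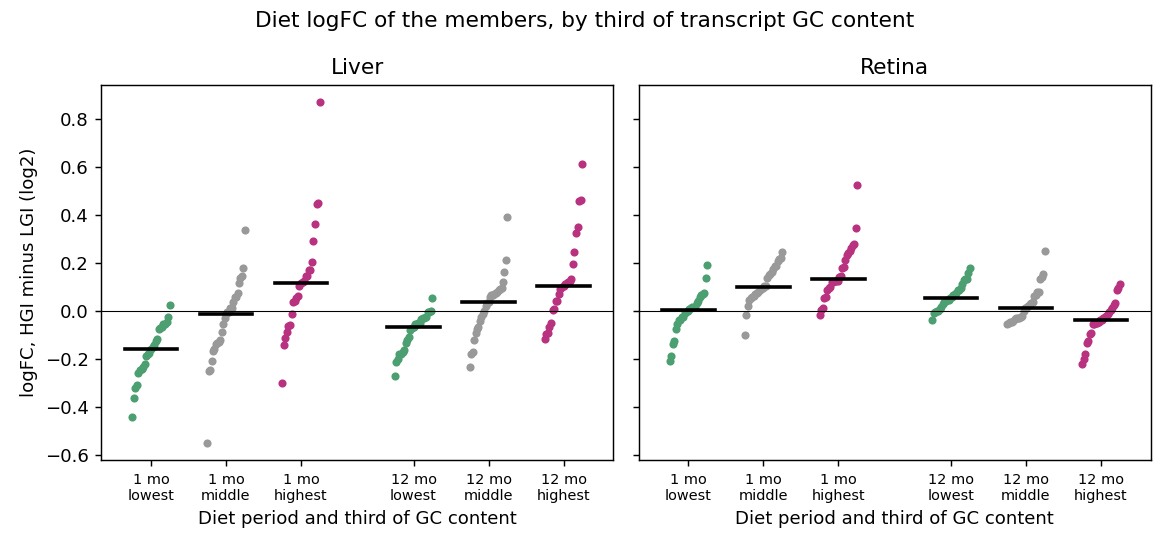
HGI minus LGI logFC of the members at 1 and 12 months in liver (left) and retina (right), split into groups of lowest, middle and highest GC content of the leading transcript, with 1 point per member in order of value and bars for medians. Members of lowest GC content lie mostly below 0 in liver (24 of 25 and 23 of 25), and GC-rich members lie mostly above 0 in the 1-month retina (25 of 26).

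The comparison of 24-month with 7-month mice within a diet gave single members in 3 of 4 cases. In LGI livers Rpl15 was lower at 24 months (85.3, 72.5, 83.5 and 64.7 CPM) than at 7 months (86.8, 118, 94.6 and 83.1 CPM), with overlapping groups and a logFC of -0.32 (SE 0.14, adjusted p = 0.356). It was 1 of 77 members, where 6.63% of genes were lower and 6.82% higher, and with copies added its logFC was -0.16 and did not pass. The call was also lost without replicates 34, 35, 54 or 56, each in turn (-0.32 to -0.21). Without replicate 54, Rpl12 was lower instead (-0.89), and without replicate 55 (Rpl5, -0.38) or replicate 36 (Rpl39, -0.35) a second member passed. In HGI livers 0 of 77 members passed by limma, edgeR and DESeq2, where 2.77% of genes were lower and 4.98% higher, and Rps27l had the smallest p (logFC -0.26, SE 0.16). Without replicate 50, Rps2, Rps27l and Rps6 were lower at 24 months (logFC -0.46 to -0.35), where 2.83% of all genes were lower and 6.38% higher.

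In LGI retinas the steadiest member, Rpl30, was lower at 24 months, at 226, 207, 203 and 215 CPM against 235, 260, 218 and 242 CPM at 7 months. The groups overlapped, and the logFC was -0.16 (SE 0.08, adjusted p = 0.297). It was 1 of 78 members, where 9.27% of genes were lower and 6.88% higher. All 6 hepatocyte markers were higher in the same retinas at 24 months (median logFC 1.62), as were the 4 markers of the retinal pigment epithelium (median 0.784). Ttr is in both lists. The 4 lens markers tested were lower (median -3.11) without passing the unadjusted limit. The part of these markers was not tested. Rpl30 lost the call without any 1 of replicates 1, 2, 4, 22, 23 and 24 (-0.17 to -0.11). Rpl15 (-0.33) passed in its place without replicate 1, and Rpl10 (-0.40) and Rpl5 (-0.38) without replicate 24. In HGI retinas Rpl12 was lower at 24 months, at 3.44, 3.58, 4.12 and 4.42 CPM against 4.53, 5.12, 4.78 and 5.06 CPM, and every older retina lay below every younger one. Its logFC was -0.33 (SE 0.15, adjusted p = 0.861), and with copies added it was 0.05 and did not pass. Nor did it pass without any 1 of replicates 5, 6, 7, 8, 17, 18 and 19 (-0.34 to -0.27). It was 1 of 78 members called, where 2.43% of genes were lower and 3.37% higher, and the 1 member without overlap, against 4.37% of genes. Rpl12 also met the study's retina limits here, as did 1.34% of all genes in that direction. In the same comparison 24 of the 26 GC-rich members had a negative logFC (median -0.137). As on LGI, the 4 markers of the retinal pigment epithelium (median logFC 1.47) and the 6 hepatocyte markers (median 0.921) were all higher. The 4 lens markers tested were again lower (median -3.32) without passing the unadjusted limit. The part of GC content or of these markers in the members' values was not tested.

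Whether the diet effect differed between the 12-month and 1-month mice was tested as a difference of logFC values. In liver 0 of 77 members passed by limma, edgeR and DESeq2, where 2.34% of genes were positive and 1.65% negative, and Rpl12 had the smallest p (0.94, SE 0.48) and passed without replicate 38 (1.15) or 54 (1.204). In retina Rpl12 was the 1 member of 78 to pass (-0.48, SE 0.22, adjusted p = 0.491), where 3.73% of genes were negative and 6.42% positive. Rpl12 also met the study's retina limits here, as did 3.08% of all genes in that direction. With copies added its value was -0.03 and did not pass. It also did not pass without any 1 of replicates 2, 3, 4, 6, 7, 8, 17, 18, 22 and 24 (-0.49 to -0.39). Without replicate 8 (0.44) or 24 (0.47) Rpl5 passed instead, and without replicate 20 Rps23 (0.27) passed beside Rpl12. The diet and age comparisons of a tissue share samples, so the Rpl12 values in retina are not separate evidence.

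Members with known further roles gave no call in any diet or age comparison. Rps6 had logFC values of -0.12 after 1 month and -0.12 after 12 months in liver and of 0.14 and 0.10 in retina. For Rpl11 the same 4 values were 0.34, 0.21, 0.24 and -0.05, with SEs of 0.46 to 0.55 that exceed them. For Rplp0 they were 0.12, 0.03, 0.19 and -0.02, and for Rps4x, measured more precisely, -0.19, -0.05, -0.04 and 0.05 (SEs 0.16, 0.16, 0.08 and 0.08).

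Other genes of the pathway were read from whole lists fixed by name, which were chosen with earlier results of these data known. Of 22 translation factors and related TOP genes, 0 to 2 passed an unadjusted p below 0.05 in any diet or age comparison. Hnrnpa1, an RNA-binding protein with a TOP message, was the only gene of this list to pass the adjusted limit, in LGI retinas at 24 months (logFC -0.42, adjusted p = 0.0214). Between tissues the list moved as the ribosomal proteins did under TMM, with 19 lower, 2 higher and a median of -1.15, where 40% of all genes were lower and 52% higher. It was not compared under the other scalings, in which the members' direction changed. Elongation factor Eef1a1 had a logFC of -2.32, poly(A)-binding Pabpc1 of -1.80 and Tpt1 of -2.48.

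Of 28 to 30 ribosome biogenesis genes tested, at most 6 passed an unadjusted p in a diet, age or interaction comparison and 0 the adjusted limit. The 6 of 30 were in LGI retinas at 24 months, where 6.88% of all genes were higher and 9.27% lower. Utp4 (0.41), Nop56 (0.26), Ftsj3 (0.36) and the RNA polymerase I subunit Polr1a (0.35) were higher and Rrs1 (-0.29) and Gar1 (-0.32) lower. Between tissues, under TMM, 12 genes of this list were higher and 14 lower in retina at an adjusted p below 0.05, with a median of -0.175.

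Of 23 to 25 regulators of translation tested (mTOR and stress control), 0 to 5 passed an unadjusted p in a diet, age or interaction comparison and 0 the adjusted limit. The most were in the retina interaction, with 5 negative and 0 positive, where 3.73% of all genes were negative and 6.42% positive. In retina after 12 months of HGI 3 were lower and 0 higher, where 3.25% of all genes were lower and 4.5% higher. Between tissues, under TMM, 14 were higher and 10 lower in retina at an adjusted p below 0.05 (median 0.495). The S6 kinase family member Rps6ka1 was higher on HGI in liver after 1 month (logFC 1.12, adjusted p = 0.669) and 12 months (1.246, adjusted p = 0.121) at an unadjusted p below 0.05. Atf4, which drives the amino acid response, had a logFC of 0.18 after 1 month and -0.24 after 12 months in retina, and Tsc1, an mTOR inhibitor, had -0.28 after 12 months (adjusted p = 0.999, 0.607 and 0.607).

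Under TMM the mitochondrial ribosome behaved like the cytosolic one between tissues. At an adjusted p below 0.05, 70 of 78 of its genes were lower in retina (median -1.29), where 40% of all genes were lower and 52% higher. This list was compared between tissues under TMM alone, so its direction is as unsettled as that of the members. In LGI livers at 24 months 7 of its 77 tested genes were lower and 1 higher at an unadjusted p below 0.05. Of all genes, 6.63% were lower and 6.82% higher in that comparison. Of the 13 mitochondrially encoded protein genes, 12 were lower in LGI livers at 24 months at an unadjusted p below 0.05 (median -0.772) and 5 at an adjusted p below 0.05, among them mt-Co3 (-1.12, adjusted p = 0.00826). In HGI livers 4 of 13 were lower at the unadjusted limit, as were 2.77% of all genes, and 0 at the adjusted one. The difference between diets was positive at the unadjusted limit for 2 of 13 and for 2.34% of all genes. In retina 8 of 13 were lower at 24 months on LGI at the unadjusted limit (2 at the adjusted limit, median -0.488), as were 9.27% of all genes. On HGI 0 passed and all 13 had a positive logFC (median 0.256), as did 44.9% of all genes. After 12 months 8 of 13 were higher on HGI in retina at the unadjusted limit (median 0.453), as were 4.5% of all genes. The difference between diet effects was positive at the unadjusted limit for 9 of 13 (median 0.724) and for 6.42% of all genes. At the adjusted limit 0 of 13 passed in either comparison.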

How the data were processed

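Libraries were polyA-selected and strand-specific. The authors quantified reads with kallisto and summarised them with tximport, per the labels on Ensembl 104 and GRCm39, and the deposited tables hold estimated counts per gene and per transcript of each tissue. Tables of normalized values, deposited by the authors as a non-negative signal, served only to fix which liver genes they kept. Here whole-number roundings of these values entered voom with TMM factors (limma 3.58.1, R 4.3.3), modelled as 4 group means per tissue or 8 for the tissue contrast. Genes needed a mean above 1 CPM in at least 1 group. P-values were adjusted by Benjamini-Hochberg over all genes tested. edgeR 4.0.16 and DESeq2 1.42.0 were alternatives. Tests are two-sided, and p-values measure the spread between mice. TPM and transcript GC content used vM21 lengths, which matched 138096 of 141450 transcripts and 98.8% to 99.4% of counts. Copies were found from shared 31-base words. The code was tested on simulated counts with 200 changed genes.

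Members and lists were chosen with earlier results of these data known. Members named were up to 6 of smallest p per comparison, the largest tissue differences, paralogs ending in l and their parents, those with known roles, the highest and lowest per length, those under the filter, and those whose leading transcript differed. Retinal and liver libraries shared a sequencing lane, and the authors removed retinal genes from the liver results. Depth sets the counting error only. Some items are not reported here.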

Additional observations from a re-analysis of the deposited data

Results flagged for a closer look

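In 70 groups of 4 libraries that were examined (the family share and 11 members: Rps2, Rps4l, Rps6, Rps23, Rps24, Rps27, Rps27l, Rpl10, Rpl12, Rpl15 and Rpl30), 7 had 1 library whose gap to its neighbour, as a part of the whole range of the group, passed Dixon's 95% limit. Chance gives about 1 in 20. In 1-month LGI retinas this was the family share, at 1.15% in replicate 1 against 0.833%, 0.853% and 0.833% (gap ratio 0.937). The same library set the flags of Rps2 (152 CPM against 102, 105 and 107, ratio 0.9) and Rps4l (8.59 CPM against 2.12, 3.08 and 2.58, ratio 0.852). For Rps6 in that group, replicate 3 was low (123 CPM against 147, 145 and 145, ratio 0.917). In replicate 1 the median deviation from the group mean was 0.117 on the log2 scale for members of lowest GC content and 0.731 for those of highest, and 0.00621 and 0.601 for other short genes.

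In 12-month LGI retinas Rps2 was low in replicate 24 (86.9 CPM against 125, 130 and 128, ratio 0.884). In 1-month HGI retinas Rps23 was low in replicate 6 (56.4 CPM against 63.5, 64.2 and 64.1, ratio 0.91). In 1-month LGI livers Rps24 was low in replicate 36 (248 CPM against 306, 297 and 303, ratio 0.845).

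The diet effect on Rpl12 in retina differed between 12 and 1 months (logFC difference -0.48, SE 0.22, adjusted p = 0.491). It was -0.03 when copies were counted with the gene.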

How the results depend on the processing

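No paired analysis was run. Groups compared within a tissue share no replicate numbers. Liver and retina replicate numbers differ by the same amount in every group, so a liver and a retina may come from the same mouse, but no label says so. The p-values between tissues treat all libraries as separate. With edgeR and with DESeq2 the members at an unadjusted p below 0.05 numbered 2 in liver after 1 month and 0 in retina after 1 month, in HGI retinas by age and in the retina interaction, and with DESeq2 size factors in voom the last was also 0. By library totals the count was 0 for the 1-month diet in liver, for age in LGI livers and for age in LGI and HGI retinas. With named pseudogenes added it was 0 for the 1-month diet and for LGI age in liver, and with all near-identical copies added also 0 for the retina 1-month diet, HGI age and interaction. Under the last setting Rpl12 in HGI retinas turned from lower to higher with age (logFC 0.0528).

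Without a filter on low counts there were 3 members for the 1-month diet, 2 for the 12-month diet and 1 for the interaction in liver, and 1 for the 12-month diet, 2 for LGI age and 0 for HGI age in retina. Leaving out 1 library gave 0 to 6, 0 to 9, 0 to 2, 0 to 3 and 0 to 1 members in liver (diet at 1 and 12 months, age on LGI and HGI, interaction) and 0 to 2, 0 to 2, 0 to 2, 0 to 1 and 0 to 2 in retina, and 70 to 74 between tissues, where the median lay between -1.09 and -0.95. The tissue median was 0.526 by totals, 0.061 scaled to the members' total and 0.0802 with copies also added.

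With copies added the family share was 0.758% in 1-month LGI, 0.804% in 1-month HGI and 0.891% in 12-month LGI livers, and 1.13%, 1.15% and 1.1% in 1-month HGI, 12-month LGI and 12-month HGI retinas. Without the top 20 genes in the denominator it was 1.02%, 1.03%, 1.08% and 1.19% in livers and 1.1%, 1.15%, 1.16% and 1.13% in retinas (1-month LGI and HGI, 12-month LGI and HGI). Alternatives with totals, copies and the members' total were chosen after seeing the data. Groups of 3 or 4 libraries leave 95% intervals of about 0.6 in liver and 0.37 in retina (median half-width, log2). Reads shared with copies limit some members further, most of all the 11 in liver and 10 in retina with over 50% of combined counts in copies.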
